A study of Mus musculus with 4 samples.

Results

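Oligodendrocyte precursor surface and matrix genes are here 8 genes, chosen by name: Cspg4, Ptprz1, Cspg5, Olig2, Cacng4, Matn4, C1ql1 and Tnr. Each had 1 row among the 5282 genes of the authors' deposited table, and all 8 passed the filter of a mean level of at least 1. The study measured RNA in dissected corpus callosum plus cortex taken from mice on postnatal day 15. One group carried Pdgfra-creER;SmoM2 and had 2 samples. The other was wild type (WT), also with 2 samples, and both groups were given tamoxifen between postnatal days 5 and 7. SmoM2 is a mutant Smoothened, the transducer of the hedgehog signal, that is active without ligand. Pdgfra-creER is a recombinase switched on by tamoxifen in cells that use the Pdgfra promoter, which are oligodendrocyte precursors and, outside the lineage, fibroblasts. Other alleles, litters and the number of animals behind a sample are not given in the sources used here, so spread between replicates may be technical.

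Oligodendrocyte precursors are the dividing cells from which myelinating oligodendrocytes form. They carry proteoglycans, proteins with long sugar chains, on their surface and secrete matrix proteins into the space around them. As the cells differentiate, NG2, the product of Cspg4, is lost and myelin proteins are made. Several of the 8 genes are also used outside the precursors: Cspg4 by pericytes, Ptprz1 and Cspg5 by astrocytes or neurons, and Tnr by maturing oligodendrocytes and some interneurons. One member, Olig2, encodes a transcription factor and not a surface or matrix protein. In bulk tissue, fewer cells of a type and less RNA per cell cannot be told apart.

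The table holds for each gene an expression level per sample, and the sources used here do not say how it was scaled for transcript length or sequencing yield. Read depth is unknown, since the table has no counts. It lists only genes with an unadjusted p of at most 0.05 in the authors' comparison, so every one of the 8 genes was bound to differ to some degree, and its difference is no independent evidence. Below, "rose" and "fell" mean an adjusted p of at most 0.05 in that table, a call made for 37.3% of all listed genes, 21.3% upward and 16.0% downward, and for 3.45% of the genes the authors tested. Smo, the gene altered by design, was at 10.7 and 11.0 in SmoM2 against 7.12 and 5.75 in WT. SmoM2 replicate 1 stood apart for markers of adjoining regions: 7 listed choroid plexus genes summed to 153 there, to 726 in SmoM2 replicate 2, and to 1368 and 1402 in WT, most of it Ttr outside that library. The other 6 genes of that list summed to 81.4 there, to 108 in SmoM2 replicate 2 and to 165 and 239 in WT. Summed levels of 12 listed genes of olfactory bulb interneurons were 247 in that library and between 134 and 162 in the others. The differences of the 8 genes are therefore given with and without it. The labels name no batch.

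The sequence upstream of 4 of the genes is shown, those with a single start in RefSeq's promoter table (GRCm38.p6): Cspg4, Ptprz1 and Olig2, which were higher, and Tnr, which was lower. Matn4, also higher, has 2 starts there, both inside the overlapping gene Rbpjl, so it was searched for motifs but is not printed. The table had no entry for Cspg5, Cacng4 or C1ql1, so 3 of the 7 higher genes are not covered. Each stretch begins 250 bases before the RefSeq start and stops at the first start annotated by RefSeq or GENCODE. All 4 lie on the plus strand, and capitals mark a GC box, the letters GGGCGG on either strand.
Cspg4, chr9:56864854-56865032: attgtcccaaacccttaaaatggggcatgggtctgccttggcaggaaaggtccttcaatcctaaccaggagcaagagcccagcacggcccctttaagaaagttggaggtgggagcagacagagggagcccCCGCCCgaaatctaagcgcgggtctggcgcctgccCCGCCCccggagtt
Ptprz1, chr6:22875252-22875501: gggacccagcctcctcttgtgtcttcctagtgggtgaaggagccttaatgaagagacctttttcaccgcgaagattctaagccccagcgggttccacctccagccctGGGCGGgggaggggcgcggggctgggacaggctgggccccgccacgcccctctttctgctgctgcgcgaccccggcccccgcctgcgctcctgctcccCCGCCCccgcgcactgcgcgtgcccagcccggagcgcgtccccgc
Olig2, chr16:91225300-91225456: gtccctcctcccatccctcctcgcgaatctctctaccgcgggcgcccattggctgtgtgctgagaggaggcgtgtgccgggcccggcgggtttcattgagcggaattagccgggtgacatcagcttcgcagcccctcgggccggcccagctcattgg
Tnr, chr1:159523519-159523768: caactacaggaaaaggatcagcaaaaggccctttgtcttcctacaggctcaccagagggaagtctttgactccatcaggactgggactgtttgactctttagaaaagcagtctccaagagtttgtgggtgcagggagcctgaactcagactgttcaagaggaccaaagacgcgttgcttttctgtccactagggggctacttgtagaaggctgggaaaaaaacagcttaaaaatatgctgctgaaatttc

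Over the full 250 bases before the RefSeq start, Cspg4, Ptprz1 and Olig2 each had 2 GC boxes and Tnr had none, whereas 32.7% of 32851 promoters had at least 1. The 2 in Olig2 lie beyond the printed stretch. Matn4 had none before its outer start and 1 before its inner start, so a GC box was not found before every start of the higher genes. An E-box, CANNTG, the kind of site bound by Olig2 and related factors, was found in none of these 4 windows, once before the outer start of Matn4, and in 66.2% of all promoters. The letters CCACCCA, part of the GLI consensus, matched once, 17 bases before the RefSeq start of Olig2 and beyond its printed stretch, against 8.1% of all promoters. TATAAA matched there too, 8 bases before the start, against 12.4% of all promoters. Neither of the last 2 matched before Matn4. GC boxes do not overlap the other 3 motifs in the 4 windows. The printed stretch was 71.6% G and C for Ptprz1, 66.9% for Olig2, 60.3% for Cspg4 and 46.8% for Tnr. A match is a description of the letters, and the absence of one says only that these letters are not in the window.

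Of the 8 genes, 3 rose in SmoM2 (Cspg4, Ptprz1 and Cspg5), Tnr fell, and the other 4 were higher in both SmoM2 samples without passing. For the 7 that were higher, the SmoM2 mean was between 1.28 and 1.50 times the WT mean, and 53.2% of all listed genes were higher. In none of the 8 did the groups overlap, but that held for 84.7% of all listed genes, 49.5% on the higher side and 35.2% on the lower. By the authors' deposited table the 8 had a median log2 fold change of 0.33, beside 0.23 for all listed genes. With limma on log2(level + 1), fitted to 4845 listed genes, it was 0.39 for the 8 and 0.25 for all fitted genes. These medians keep the sign, and those over all genes mix both directions. Sign aside, the authors' log2 fold change had a median size of 0.43 over all listed genes. Of the 8 genes, only Cspg4 and C1ql1 exceeded that size. No member passed an adjusted p of 0.05 in the limma recalculation over the authors' 57010 tests, where 0.124% of fitted genes did. An unadjusted p under 0.05 was reached by 7 of the 8 and by 55.5% of all fitted genes, which the authors' own p had already selected. At other thresholds of the authors' adjusted p, 1 of the 8 passed 0.01 beside 22.9% of listed genes, and 5 passed 0.1 beside 47.7%. Adjusted over the fitted rows alone, Cspg5, Olig2 and C1ql1 passed, 3 of 8 beside 33.4% of all fitted genes. With 2 samples against 2, an exact permutation test of a single gene cannot give a two-sided p below 0.333.

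**Figure D1:**
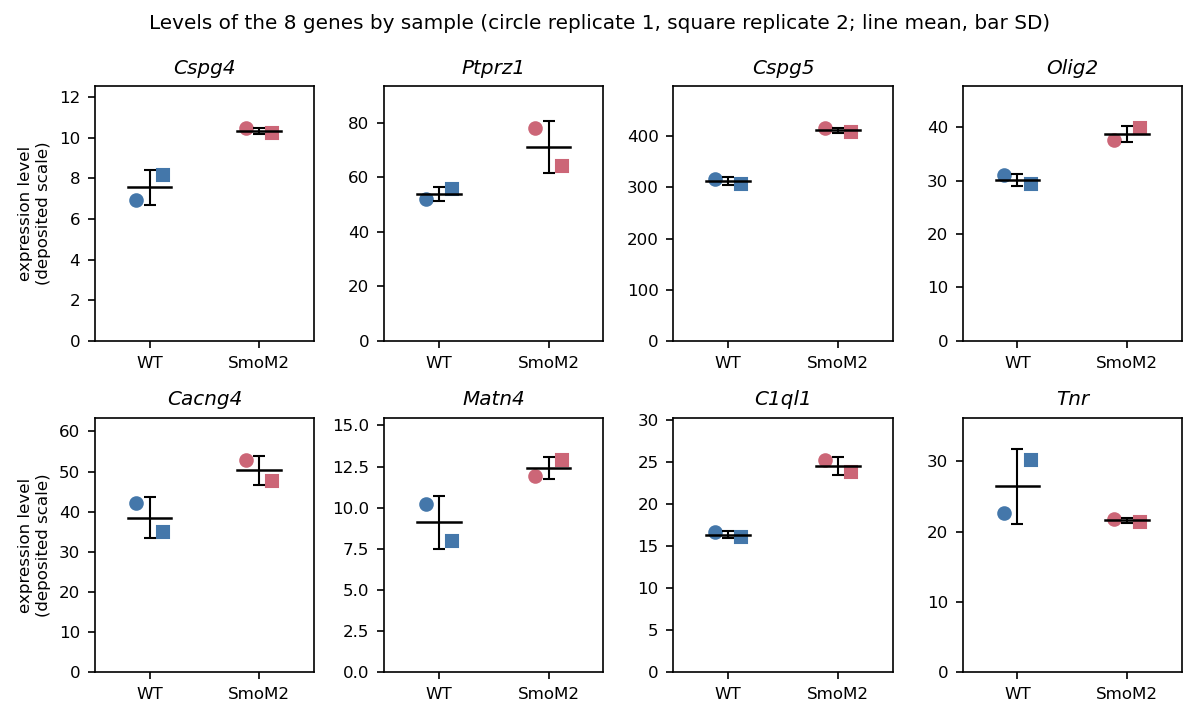
Expression level on the deposited scale (vertical axis, starting at 0) of each of the 8 genes in the 2 WT and 2 SmoM2 samples, with the mean as a line and the SD as a bar. Both SmoM2 samples sit above both WT samples for 7 genes, and below them for Tnr, where 1 WT sample is near the SmoM2 level.

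Among the surface proteoglycans, Cspg4 encodes NG2, a transmembrane chondroitin sulfate proteoglycan that serves as a standard marker of precursors. Its level was 10.5 and 10.2 in SmoM2 against 6.95 and 8.16 in WT. The SmoM2 samples were nearly equal, and the lower of them was 1.25 times the higher WT sample. The means were 10.3 ± 0.156 and 7.56 ± 0.856 (SD, n = 2 each), a log2 difference of 0.41 with a 95% interval of 0.04 to 0.78 (limma). Leaving out any 1 library kept it between 0.31 and 0.51. Cspg4 (ENSMUSG00000032911) had 0.49 as its log2 fold change in the authors' deposited table, at an adjusted p of 0.0124. In GRCm38 it lies on chromosome 9 from 56865033 to 56899870, and its longest annotated transcript has 10 exons.

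Pericytes, contractile cells on capillaries, also make NG2, and their listed genes were higher too. Of 13 pericyte and smooth muscle markers, 7 had a row, all 7 were higher on average and 3 rose. The groups did not overlap for 5 of the 7, beside 84.7% of all listed genes. They overlapped for Pdgfrb and Myh11. Pdgfrb read 11.3 and 7.45 in SmoM2 against 6.82 and 7.64 in WT, and did not pass. Its limma log2 difference of 0.31 went to 0.04 without SmoM2 replicate 1. The summed level of the 7 was 120 to 143 in SmoM2 and 61.9 to 78.0 in WT. Without Vtn it was 33.8 to 40.0 against 22.1 to 25.6. Vtn, the vitronectin gene, read 103 and 86.4 against 55.9 and 36.3, while Rgs5, Kcnj8 and Abcc9 had no row. The part of pericytes in the difference of Cspg4 was not tested.

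Ptprz1 encodes a receptor-type tyrosine phosphatase whose outer part carries chondroitin sulfate and is also released as phosphacan. It read 77.9 and 64.3 in SmoM2 against 52.2 and 55.6 in WT. SmoM2 replicate 1 was the highest sample, and the SmoM2 replicates differed by 1.21-fold, more than the 1.16-fold gap between the nearest samples of the groups. The log2 difference of 0.39 (95% interval 0.09 to 0.68, limma) went to 0.25 without SmoM2 replicate 1. For Ptprz1 (ENSMUSG00000068748, chromosome 6, 22875502 to 23052916), the authors' deposited table lists 0.37 as the log2 fold change, with an adjusted p of 0.00847, the smallest of the 8.

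Cspg5 encodes neuroglycan C, a transmembrane proteoglycan with an EGF-like domain that is made by neurons as well as by precursors. Its level was 415 and 407 in SmoM2 against 317 and 306 in WT. Replicates differed by only 1.02-fold and 1.03-fold, and the lower SmoM2 sample was 1.28 times the higher WT sample. The log2 difference was 0.40 (95% interval 0.20 to 0.60, limma). Leaving out any 1 library kept it between 0.37 and 0.42. For Cspg5 (ENSMUSG00000032482, chromosome 9, 110243783 to 110262576), the authors' deposited table lists 0.32 as the log2 fold change, with an adjusted p of 0.0220.

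Astrocytes use Ptprz1 strongly, and their listed markers did not move one way. Of 16, 8 had a row, with 2 that rose and 3 that fell. Aqp4, the water channel gene, rose and read 51.6 and 40.3 in SmoM2 against 32.4 and 31.6 in WT. Gfap, which encodes an intermediate filament, rose and read 196 and 179 against 150 and 112. Slc1a2, the gene of a glutamate transporter, Glul, the glutamine synthetase gene, and Gjb6, a connexin gene, fell. The groups overlapped for Gjb6, at 59.05 and 37.8 in SmoM2 against 61.8 and 49.4 in WT. Its limma log2 difference of -0.22 turned to 0.09 without SmoM2 replicate 2. The summed level of the astrocyte markers was 1908 to 2088 in SmoM2 and 2122 to 2309 in WT. Most of it was Glul, Aldoc and Slc1a2, and without Glul the sums of the groups overlapped. Among 15 neuronal markers, 6 had a row, with 2 that rose and 2 that fell, and their sums were 4117 and 4215 in SmoM2 against 3649 and 4081 in WT. Without Snap25, which fell, the other 5 summed to 2832 and 2937 in SmoM2 against 2164 and 2287 in WT. The part of astrocytes and neurons in the differences of Ptprz1 and Cspg5 was not tested.

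Olig2 encodes the basic helix-loop-helix factor that specifies the lineage and stays on in mature oligodendrocytes. Its level was 37.6 and 39.7 in SmoM2 against 31.0 and 29.4 in WT. The replicates differed by 1.06-fold in SmoM2 and 1.05-fold in WT, and the nearest samples of the groups by 1.22-fold. The log2 difference was 0.35 (95% interval 0.10 to 0.60, limma). In the authors' deposited table Olig2 (ENSMUSG00000039830, chromosome 16, 91225457 to 91228677) had 0.28 as its log2 fold change, the smallest in size of the 8, with an adjusted p of 0.210.

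Cacng4 encodes a TARP, a membrane protein that accompanies AMPA-type glutamate receptors, which precursors use to sense axonal activity. It read 52.9 and 47.8 in SmoM2 against 42.2 and 34.9 in WT. The WT replicates differed by 1.21-fold and the nearest samples of the groups by 1.13-fold. The log2 difference of 0.38 (95% interval 0.07 to 0.69, limma) went to 0.25 without WT replicate 2. Cacng4 (ENSMUSG00000020723, chromosome 11, 107732357 to 107794557) did not pass in the authors' deposited table, where its adjusted p was 0.104.

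Matn4 and C1ql1 encode secreted proteins. Matrilin-4, the product of Matn4, is an adaptor protein of the extracellular matrix. Its level was 11.9 and 12.9 in SmoM2 against 10.2 and 7.99 in WT. The WT samples lay 1.28-fold apart, more than the 1.17-fold between the nearest samples of the groups. The log2 difference of 0.42 (95% interval 0.01 to 0.82, limma) went to 0.25 without WT replicate 2, and the authors' adjusted p was 0.482, the largest of the 8. Matn4 (ENSMUSG00000016995, chromosome 2, 164389393 to 164405160) overlaps Rbpjl on the opposite strand. The sources used here do not say whether counting used strand, so reads of the pair may not be separable. The same limit holds for Cspg5, Cacng4 and C1ql1, each of which overlaps 1 annotated gene on the opposite strand. Tnr overlaps 2 annotated genes on its own strand and 1 on the opposite strand.

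C1ql1 encodes a secreted C1q-like protein that binds the adhesion receptor Adgrb3. It read 25.2 and 23.7 in SmoM2 against 16.6 and 16.1 in WT. The groups lay further apart than for any other member, the lower SmoM2 sample being 1.43 times the higher WT sample, and replicates differed by at most 1.06-fold. The log2 difference was 0.55 (95% interval 0.27 to 0.84, limma), and between 0.51 and 0.60 with any 1 library left out. For C1ql1 (ENSMUSG00000045532, chromosome 11, 102939264 to 102946688), the authors' deposited table lists 0.51, the largest of the 8, as the log2 fold change, with an adjusted p of 0.0623, just outside the call.

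Tnr encodes tenascin-R, a matrix glycoprotein of perineuronal nets and nodes of Ranvier. Its level was 21.8 and 21.4 in SmoM2 against 22.7 and 30.2 in WT. WT replicate 1 read close to the SmoM2 samples, and the WT replicates differed by 1.33-fold, the widest spread in the set. The means were 21.6 ± 0.318 and 26.4 ± 5.30 (SD, n = 2 each). The log2 difference of -0.27 had a 95% interval of -0.65 to 0.12 (limma). It went to -0.07 without WT replicate 2 and to -0.46 without WT replicate 1. In the authors' deposited table Tnr (ENSMUSG00000015829, chromosome 1, 159523769 to 159931729) had -0.34 as its log2 fold change, with an adjusted p of 0.0289.

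Listed markers of mature oligodendrocytes and of parvalbumin interneurons were lower as well. Of 22 markers of mature oligodendrocytes, 18 had a row and 16 fell, with summed levels of 3141 and 3552 in SmoM2 against 6536 and 6151 in WT. Of 12 genes of parvalbumin interneurons, the neurons best known for perineuronal nets, 3 had a row, all lower, and 2 fell. They summed to 37.3 and 47.7 in SmoM2 and to 61.6 and 67.3 in WT. Pvalb read 12.4 and 19.6 against 29.4 and 29.0, and its log2 difference went from -0.86 to -0.55 without SmoM2 replicate 1 (limma). Their part in the difference of Tnr was not tested.

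**Figure D2:**
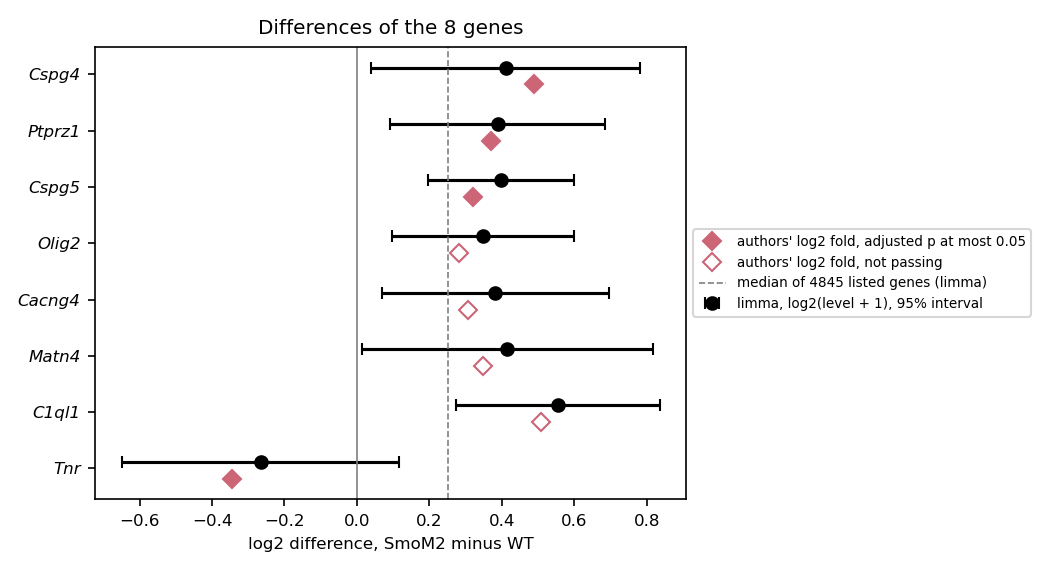
Log2 difference of each gene, SmoM2 minus WT (horizontal axis), from limma with its 95% interval (black) and as the authors' log2 fold change (diamonds, filled where their adjusted p is at most 0.05). The dashed line is the limma median of 4845 listed genes, 0.25, signed and over both directions. These genes were selected by the authors' p in the same samples, so the line is a description and no test value.

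With SmoM2 replicate 1, the library that stood apart, left out, all 8 genes kept their direction (limma). The log2 differences were then 0.40 for Cspg4, 0.38 for Cspg5, 0.39 for Olig2 and 0.31 for Cacng4. They were 0.47 for Matn4, 0.51 for C1ql1 and -0.28 for Tnr, beside the 0.25 given above for Ptprz1. SmoM2 replicate 2 also summed below both WT samples for choroid plexus genes, at 726 against 1368 and 1402. Leaving out SmoM2 replicate 1 therefore does not remove that difference between the groups.

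**Figure D3:**
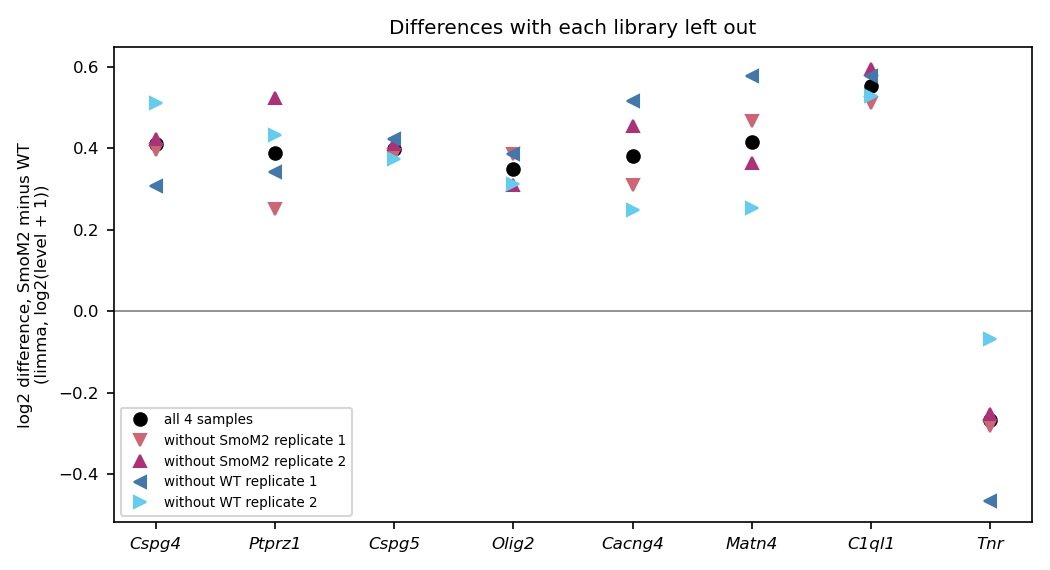
Log2 difference from limma (vertical axis) for each gene with all 4 samples and with each library left out. C1ql1, Cspg5 and Olig2 hold their values, while Tnr runs from -0.46 to -0.07.

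The sources used here do not say whether the level is scaled for transcript length, so an order of the 8 genes describes the listed values and does not rank transcript abundance. In WT the order of mean levels was Cspg5, Ptprz1, Cacng4, Olig2, Tnr, C1ql1, Matn4 and Cspg4. Cspg5 averaged 312 and the next gene, Ptprz1, 53.9, a ratio of 5.79. The samples of Olig2 and Tnr overlapped, as did those of Matn4 and Cspg4, so these neighbours did not differ beyond their spread. In SmoM2 the order was the same except that C1ql1, at a mean of 24.5, stood above Tnr, at 21.6, and no neighbours overlapped. The ratio of Cspg5 to Ptprz1 was 5.78 there.

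Relating each gene to Olig2 in the same sample removes a shift common to the lineage factor and that gene, as well as differences in library scaling. For 5 of the 7 other genes this ratio overlapped between the groups. Cspg4 over Olig2 was 0.278 and 0.257 in SmoM2 and 0.224 and 0.278 in WT, and Cspg5 over Olig2 was 11.0 and 10.3 against 10.2 and 10.4. C1ql1 over Olig2 did not overlap, at 0.670 and 0.597 in SmoM2 and 0.537 and 0.546 in WT. Tnr over Olig2 was 0.580 and 0.538 in SmoM2 and 0.733 and 1.03 in WT. Over all other listed genes, 70.1% had a ratio to Olig2 without overlap, against 2 of the 7 here. Taken to Cspg4 in place of Olig2, Tnr was again without overlap, at 2.09 in both SmoM2 samples against 3.26 and 3.70, beside 65.7% of other listed genes, and the other 6 overlapped. Both shares of listed genes include genes lower in SmoM2, which part more readily from a gene that was higher. Shares among higher genes alone were not worked out, so overlap here cannot be called particular to these genes. These ratios are a description, since 2 samples against 2 allow no exact p below 0.333.

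**Figure D4:**
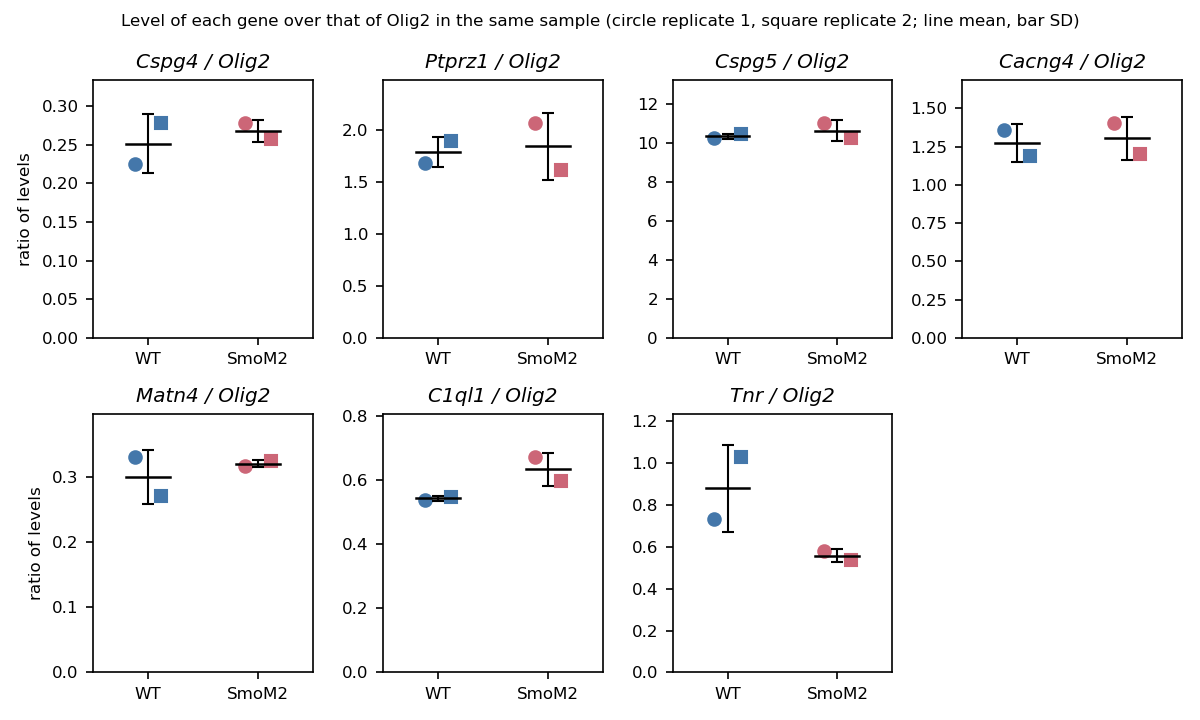
Level of each of the other 7 genes divided by the level of Olig2 in the same sample (vertical axis, a ratio, starting at 0), with mean and SD by group. Points of both groups mix for 5 genes, C1ql1 is higher in SmoM2 and Tnr is lower.

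Other genes of the precursor stage gave a mixed picture. Of 25 further precursor genes, 7 had a row, 4 higher and 3 lower, and 3 passed. Emid1, which encodes a secreted protein with a collagen stretch, rose, from 24.99 and 26.0 in WT to 39.5 and 37.8 in SmoM2. Rlbp1 rose too, from a mean of 18.6 to 27.0, and Sema5a, a semaphorin gene, fell, from 11.0 to 8.43. Pdgfra, Olig1, Sox10, Gpr17 and Vcan had no row. Of 14 genes of committed precursors, the next stage, 5 had a row, and 3 fell while none rose. Among 22 cell cycle genes, 12 had a row, 11 were higher and Cdk1 rose, and the sums were 50.8 and 58.1 in SmoM2 against 36.2 and 39.2 in WT. The part of dividing cells in the higher precursor genes was not tested.

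The matrix around precursors is built of lecticans, large proteoglycans held to hyaluronan by link proteins, and of tenascins. A list of 23 genes held these together with hyaluronan synthases and hyaluronidases, Cd44, testicans, the small proteoglycans Bgn and Dcn, and App and Aplp2. In it 11 had a row, 8 were higher and 3 lower, and 5 rose, of which Tnc and Ncan alone are of the kinds first named. Tnc, which encodes another tenascin, rose, whereas Tnr fell, and read 6.31 and 5.68 in SmoM2 against 3.30 and 3.33 in WT. Ncan, the neurocan gene, rose as well and read 131 and 120.1 against 95.8 and 97.6. Bcan, the brevican gene, read 196 and 187 against 153 and 145 without passing, its adjusted p in the authors' deposited table being 0.0616. Hyal2, a hyaluronidase gene, and Bgn rose, with means of 13.3 and 20.99 in SmoM2 and 7.79 and 11.8 in WT. Dcn also rose, and its limma log2 difference of 0.65 went to 0.30 without SmoM2 replicate 2, to 0.41 without WT replicate 2 and to 1.00 without SmoM2 replicate 1. Bgn and Dcn are small proteoglycans of fibroblasts, and of 13 meningeal fibroblast markers, Dcn included, 12 had a row and all 12 rose. Most of the fibroblast sum was Ptgds, the gene of a prostaglandin D synthase, at 1641 and 1728 in SmoM2 and 933 and 313 in WT. Its limma log2 difference of 1.64 went to 0.85 without WT replicate 2. The other 11 markers summed to 277 and 232 in SmoM2 and to 128 and 118 in WT, and the part of fibroblasts in the rise of these matrix genes was not tested.

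Enzymes that build chondroitin sulfate, the sugar chain carried by the products of Cspg4, Ptprz1 and Cspg5, had few members in the table. Of 26, 6 had a row, 5 were higher and 1 was lower. Chpf, which encodes a polymerizing factor of the chain, was the one that rose, at 71.2 and 73.8 in SmoM2 against 52.8 and 55.4 in WT. The authors' deposited table gives an adjusted p of 0.0409.

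Binding partners of the members were mostly higher where listed. Of 44 ligands, receptors and partners, 19 had a row, 14 higher and 5 lower, with 9 that rose and 1 that fell. Sdc3, a syndecan that like Ptprz1 binds pleiotrophin, read 210 and 215 in SmoM2 against 129 and 132 in WT. L1cam, an axonal adhesion molecule gene, read 102 and 115 against 63.1 and 73.2. Tcf3, which encodes an E protein that pairs with Olig2, averaged 19.7 in SmoM2 and 12.7 in WT. Erbb3, a neuregulin receptor gene of the oligodendrocyte lineage, fell from 2.58 and 2.73 in WT to 1.46 and 1.37. Mdk, the midkine gene and a ligand of Ptprz1, read 46.6 and 42.8 against 34.4 and 24.5, with an adjusted p of 0.133. Ptn, Cntn1 and Adgrb3 had no row.

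Relatives of the members divided. Among 20 other receptor tyrosine phosphatases, 8 had a row and 4 rose, with none that fell. Ptpro read 38.8 and 37.1 in SmoM2 against 21.8 and 23.8 in WT. Ptprf and Ptprs, whose group includes receptors for chondroitin sulfate, rose too, Ptprf from a mean of 33.0 to 51.2 and Ptprs from 119 to 166. Ptpru rose, although its limma log2 difference of 0.24 was 0.09 when SmoM2 replicate 2 was left out and 0.39 when SmoM2 replicate 1 was. Of 24 AMPA receptor subunits and companions, 8 had a row, with 3 that rose and 2 that fell. Cacng5 and Cacng8, relatives of Cacng4, were among those that rose: Cacng5 read 17.2 and 15.7 against 9.82 and 7.98, and Cacng8 read 107.6 and 107.2 against 63.4 and 72.9. Cnih2, a cornichon gene, averaged 743 in SmoM2 and 519 in WT. Frrs1l, which encodes a protein of receptor assembly, fell, and its limma log2 difference of -0.46 went to -0.28 without WT replicate 2.

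Of 18 matrilin, C1q-domain and tenascin genes, 11 had a row, with 5 that rose and 2 that fell. Matn2, a matrilin gene like Matn4, fell, whereas Matn4 was higher. It read 13.6 and 10.8 in SmoM2 against 16.6 and 17.5 in WT. The limma log2 difference of Matn2, -0.46, went to -0.31 without SmoM2 replicate 2. Among the 5, C1qc and C1qb encode chains of complement C1q, which microglia make, and read 80.2 and 84.0 (C1qc) and 84.9 and 82.6 (C1qb) in SmoM2 against 56.0 and 50.3 and 61.7 and 60.1 in WT. C1qa, the third chain, was higher without passing. Of 12 microglia markers, these 3 included, 6 had a row, with 5 higher, 2 that rose and P2ry12 that fell, and sums of 420 and 388 against 307 and 310. The 3 microglia markers outside the C1q chains summed to 158 and 142 in SmoM2 and to 121 and 136 in WT, and Cx3cr1 and Aif1 had no row. The part of microglia in these counts was not tested. Without the 3 chains, a choice made after their values were seen, 3 of 8 listed genes rose and 2 fell. C1qtnf4, a secreted C1q-domain gene, read 415 and 387 in SmoM2 against 228 and 243 in WT. Cbln4, a cerebellin gene, rose, and its log2 difference of 0.82 went to 0.45 without WT replicate 2 (limma). Cbln2 fell, and its log2 difference of -0.57 (limma) was -0.38 when SmoM2 replicate 2 was left out and -0.37 without WT replicate 2. Of 33 genes around Olig2, bHLH relatives and partners, 12 had a row, 4 rose and 2 fell. Hes5, a Notch target that holds precursors undifferentiated, averaged 42.5 in SmoM2 and 23.4 in WT, and Chd7, a chromatin remodeller gene, 3.16 and 1.45. Myrf and Id2 fell: Myrf, needed for myelin gene expression, went from a log2 difference of -0.47 to -0.31 without SmoM2 replicate 1, and Id2 from -0.86 to -0.49 without SmoM2 replicate 2 (limma).

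By the authors' deposited table, the listed genes of these groups had a median log2 fold change of 0.32 for further precursor genes, 0.61 for proteoglycans and link proteins and 0.30 for chain synthesis. It was 0.36 for binding partners, 0.31 for phosphatases, 0.52 for matrilins, C1q-domain proteins and tenascins (0.61 without the 3 complement chains), 0.40 for the genes around Olig2 and 0.0021 for AMPA receptor genes. All listed genes together had 0.23, a signed median over both directions, and a median size of 0.43 with the sign set aside.

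**Figure D5:**
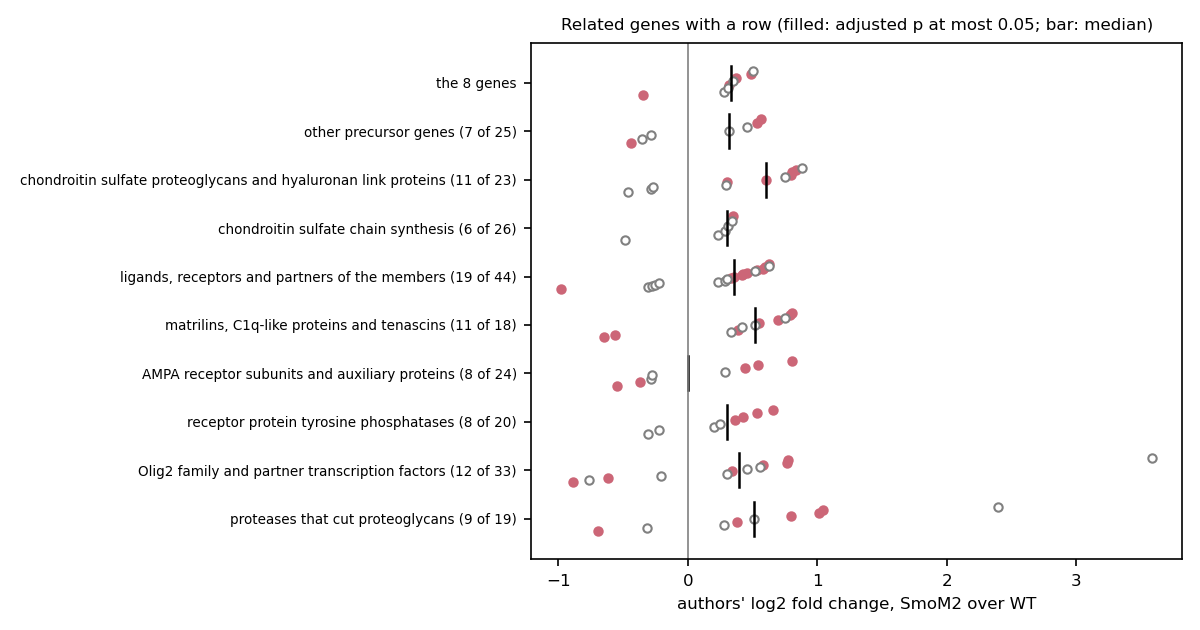
Authors' log2 fold change, SmoM2 over WT (horizontal axis), of the 8 genes and of the listed genes of 9 related groups, with the number listed of all in the group. Filled points have an adjusted p of at most 0.05 and bars are medians; the 8 genes have a median of 0.33, and the point at 3.59 is Nkx6-1, which is listed at 0 in 1 WT sample and did not pass.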

How the data were processed

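Libraries were made with Illumina's TruSeq kit from 1 ug of RNA per sample, per the labels' protocols. Per the submitters' processing notes, RSEM, DESeq2 and GRCm38.p6 were used, with neither version nor role stated. The deposited expression signal is a level with 2 decimals per sample, and the sources used here do not say if it is TPM or FPKM. The authors also give a p-value before and after adjustment, the fold as a ratio of SmoM2 to WT, and its log2. The series text says which column holds which sample. The adjusted p-values correspond to 57010 tests.

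Calls are the authors' adjusted p of at most 0.05. limma 3.58.1 in R 4.3.3 was fitted with a mean-variance trend to log2(level + 1), for the 4845 of 5282 listed genes averaging a level of 1 or more, with Benjamini-Hochberg adjustment over 57010 tests. Differences on that scale understate those of low genes. The code of the fit was tested on simulated levels with a constant spread and no selection by p. That test does not give error rates for the selected genes here. Positions come from GENCODE M21 (GRCm38), whose exons and those of RefSeq set the printed sequence.

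The members and lists were chosen with earlier results of these data known. Named from each of 9 related lists were up to 4 called genes of largest fold, or the gene of smallest p, and up to 2 from each of 13 marker lists. Ncan, Bcan, Mdk, Nkx6-1, Gfap, Glul, Aldoc, Slc1a2, Snap25, Ptgds, Ttr, C1qa, C1qb and absent genes were named after their values were seen. So were Pdgfrb, Myh11, Matn2, Col3a1, Csf1r and Tmem119. Alternatives were other pseudocounts, scalings, filters, thresholds, a replicate block and each library left out.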

Additional observations from a re-analysis of the deposited data

How the results depend on the processing

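The 7 genes that were higher in SmoM2 were higher, and Tnr lower, in the limma fit under every alternative setting, a count chosen after seeing the data. The median log2 difference of the 8 genes was 0.39. It was 0.33 with a pseudocount of 5, 0.28 with quantile normalization and 0.30 with equal sample medians. Those 3 settings also lowered the median of all fitted genes, from 0.25 to 0.17, 0.13 and 0.16, so that the 8 genes lay 0.14 above all fitted genes by the deposited levels and 0.16, 0.16 and 0.13 above them there. These gaps are between signed medians and do not mean that the 8 genes moved more than a typical listed gene. With 1 library left out the median of the 8 ran from 0.34 to 0.42. The number called, 4 in the authors' deposited table, was 1 at an adjusted p of at most 0.01 (Ptprz1), where 22.9% of listed genes passed, 5 at 0.1, where 47.7% did, and 0 by limma over 57010 tests, where 7 had an unadjusted p under 0.05, beside 55.5% of all fitted genes. Over all fitted genes limma called 6, and 0 with quantile normalization, without the filter, or without SmoM2 replicate 1, SmoM2 replicate 2 or WT replicate 2, and 2 without WT replicate 1. The labels number replicates alike in both groups but do not say that a number marks a shared litter or day, and deviations of same-numbered samples had a correlation of -0.09 across genes. With a replicate block the median of the 8 was 0.39, as without it, none of the 8 passed, 5 had an unadjusted p under 0.05 beside 49.6% of all fitted genes, and 20 genes passed in all. Depth is unknown, so no limit from it can be given.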

Other observations

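Proteases that cut proteoglycans, and their inhibitors, had 9 of 19 genes in the table, 7 higher and 2 lower in SmoM2. Mmp14, which encodes a membrane-bound metalloproteinase, rose, from 12.5 and 10.8 in WT to 31.6 and 22.6 in SmoM2. Mmp15, of the same membrane-bound kind, rose from means of 9.28 to 17.0. Adamts9, at 1.69 and 1.28 against 0.870 and 0.600, rose as well. Adamts4, an aggrecanase gene that mature oligodendrocytes use, fell from 11.6 and 12.2 in WT to 7.63 and 8.04 in SmoM2, a log2 difference of -0.55 ± 0.14 (SE, limma).

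The series text states a log2 fold change of at least 1 as a criterion, but 775 of the 5282 listed genes reach that size in either direction, and none of the 8 genes does. Among listed genes averaging a level of 1 or more, level ratios exceeded the authors' fold changes by a median of 0.08 on the log2 scale. For C1ql1 the level ratio was 0.58 and the authors' value 0.51, and for Tnr the values were -0.29 and -0.34.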
